A study of Mus musculus with 12 samples.

Results

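The genes described here are the 10 core genes of the circadian clock: Arntl, Npas2, Clock, Per1, Per2, Per3, Cry1, Cry2, Nr1d1 and Nr1d2. They were taken by name from 24532 gene identifiers measured in mouse kidney, and all 10 were present with 1 entry each. Total RNA was sequenced from kidneys of mice fasted overnight, in 12 libraries that form 4 groups of 3. Wild-type mice (strain C57BL/6) received vehicle or GW4064, and mice of strain Nr1h4tm1Gonz/J, which carry a targeted disruption of Nr1h4 and are called knockout here, received vehicle or GW4064. Nr1h4 encodes the bile acid receptor FXR, and GW4064 is a synthetic FXR agonist, given for 6 h per the labels. The labels give no hour of collection and, for vehicle, no interval after dosing. Genotype or agent and time of day therefore cannot be told apart where animals of different groups were collected at different hours. The labels also do not say whether wild-type mice were littermates of the knockout, or whether each library stands for its own mouse, so the p-values speak only of the spread among these libraries, which may be technical.

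The mammalian clock is a feedback loop of transcription. BMAL1, the product of Arntl, pairs with CLOCK or NPAS2 and switches on the Per, Cry and Nr1d genes. PER and CRY proteins then inhibit that pair, and the REV-ERB receptors encoded by Nr1d1 and Nr1d2 repress Arntl, Npas2 and other genes, so that Arntl and Nr1d1 peak at opposite phases of the day. In kidney the clock is known to time tubular transport of sodium and water, and feeding and fasting can shift clocks of peripheral organs.

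Depth was 2.86 to 4.27 mapped gigabases per library, and 16693 to 17186 genes had a value above 0. Nr1h4 lay between 189 and 267 TPM in the 6 wild-type libraries and between 105 and 134 TPM in the 6 knockout libraries, where TPM is a length-corrected abundance scaled to a total of 1000000 in each library. These are sums over the whole gene and do not show which exons the remaining reads cover. Proximal tubule markers summed to 52841 to 69455 TPM, and skeletal muscle markers to at most 0.261 TPM. Urothelial markers summed to 17.6 to 19.9 TPM in wild-type vehicle and 9.81 to 12 TPM in wild-type GW4064 libraries. In the knockout they summed to 7.69 to 17.4 TPM on vehicle and 10.2 to 24.7 TPM under GW4064. Among fat markers, Cfd varied from 0.711 to 25.3 TPM within wild-type GW4064 libraries, where Fabp4 was at 146 to 184 TPM. Of 3 blood markers, 1 globin transcript stood apart in each of 4 libraries. Hbb-bs was at 1617, 1033 and 1477 TPM in wild-type vehicle replicates 1 and 3 and knockout GW4064 replicate 3, and Hba-a1 at 908 TPM in wild-type GW4064 replicate 2. In those 4 libraries the other globin was at 11 to 23.7 TPM and Alas2 at 16.8 to 23.3 TPM, and in the other 8 the 3 markers together summed to 43.7 to 59 TPM. Podocyte markers summed to 139 to 160 TPM in wild type and 115 to 129 TPM in knockout libraries, and endothelial markers to 210 to 250 and 186 to 209 TPM. Principal cell markers summed to 392 to 450 TPM in wild-type vehicle and 252 to 356 TPM in the other groups. Those of intercalated cells summed to 118 to 134 TPM in wild type and 119 to 151 TPM in the knockout. These sums hide unlike members. On vehicle the mean of Slc4a1 was 20.3 TPM in wild type and 13.9 TPM in the knockout, and that of Slc26a4 72.3 and 90.9 TPM. For the endothelial markers on vehicle the means were 116 and 83.5 TPM for Emcn, 64 and 56.5 for Pecam1 and 59.9 and 59.6 for Kdr. Under GW4064 Pecam1 was at 60.7 TPM in wild type and 64.3 TPM in the knockout. Of the 5 proximal tubule markers, Kap made up most of the sum and was lowest in wild-type vehicle (48140 ± 229 TPM, against 57913 to 59978 TPM in the means of the other groups), which none of the other 4 was. The part of these markers in the results was not tested, and in whole kidney fewer cells of a type and less RNA per cell cannot be told apart.

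Promoter stretches of members are shown because they carry letters that clock factors recognise. RefSeq windows (GRCm38.p6) from 250 bases before to 50 bases after each annotated start matched 9 of the 10 genes by symbol, all but Per2. Both strands were searched for AGGTCA, the core letters read by REV-ERB receptors, CACGTG, the E-box of the CLOCK and BMAL1 pair, TTATGTAA, a form of the D-box read by DBP, TEF, HLF and NFIL3, and the inverted repeat recognised by FXR, which contains AGGTCA and its reverse complement. Sequences run 5′ to 3′ on the gene's strand, with the matched letters in capitals.
Arntl, chr7:113207530-113207559, plus strand, AGGTCA 31 bases after a second annotated start, downstream of the gene's first base: aaggcagaaagtAGGTCAgggacggaggtg
Nr1d2, chr14:18239151-18239210, minus strand, AGGTCA 77 bases before the start: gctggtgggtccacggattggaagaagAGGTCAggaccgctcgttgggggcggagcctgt
Per1, chr11:69098756-69098815, plus strand, CACGTG 166 bases before the start: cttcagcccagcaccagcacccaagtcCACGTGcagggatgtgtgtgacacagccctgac
Cry1, chr10:85185082-85185141, minus strand, CACGTG 60 bases before the start: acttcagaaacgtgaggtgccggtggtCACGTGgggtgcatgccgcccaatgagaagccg
Per3, chr4:151044804-151044882, minus strand, TTATGTAA 205 and 158 bases before the start: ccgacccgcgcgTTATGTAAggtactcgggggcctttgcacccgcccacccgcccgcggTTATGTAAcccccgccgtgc

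The 9 genes had 13 windows. AGGTCA was found in 4 of them (1 each of Arntl, Clock, Per1 and Nr1d2) and in 16.3% of 32851 windows of all genes. CACGTG was found in 2 of the 13 and in 7.15% of all windows, and TTATGTAA in 1 of the 13 and in 0.938%. The inverted repeat of FXR was in none of the members' windows and in 0.00913% of all. These counts describe letters in short windows and say nothing of occupancy.

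The comparison of genotypes asked whether the clock genes differ where the receptor gene is disrupted. On vehicle, the activator genes Arntl and Npas2 and the repressor gene Cry1 were higher in the knockout, and Nr1d1, Nr1d2 and Per3 were lower. Arntl was 5.17-fold higher and Nr1d1 was 7.56-fold lower. Thus 6 of the 10 genes passed (limma on log2(TPM + 0.5), Benjamini-Hochberg adjusted p under 0.05 over 14488 genes), 3 in each direction. Of all genes tested 12.9% passed, 3.19% higher and 9.73% lower. The groups did not overlap for 8 of the 10 genes, 4 higher and 4 lower, against 34.7% of all genes (7.89% higher and 26.8% lower). The median absolute log2 difference was 0.86 over the 10 genes and 0.14 over all genes. Under GW4064, 8 of the 10 passed, 4 higher and 4 lower, against 18.5% of all genes (7.08% higher, 11.4% lower), and again 8 did not overlap, 4 in each direction, against 36.7% of all (14.0% higher and 22.7% lower). There the median absolute difference was 1.11, against 0.14 over all genes. Leaving out Npas2, which reached the filter on low values only through the knockout, 5 of 9 passed on vehicle and 7 of 9 under GW4064, with median absolute differences of 0.82 and 0.96. Npas2 is also among the genes counted above as not overlapping and higher in both treatments.

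**Figure D1:**
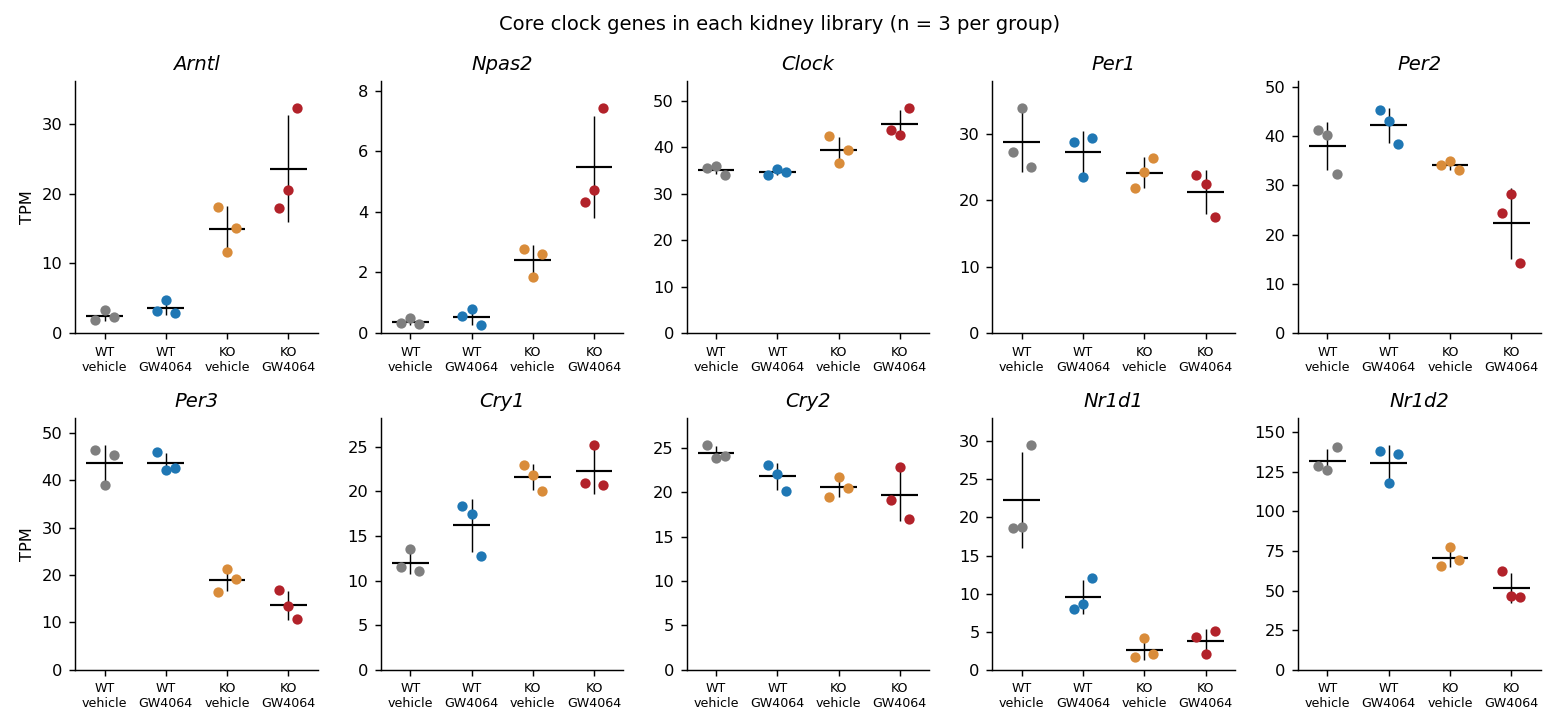
TPM of the 10 core clock genes in each of the 12 kidney libraries; points are libraries, horizontal bars are group means and vertical bars are SD (n = 3 per group), and each panel has its own linear axis from 0. Arntl and Npas2 are low in the 6 wild-type libraries and higher in all 6 knockout libraries, while Per3 and Nr1d2 are the reverse.

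Arntl (Entrez Gene 11865, mm10 chromosome 7, 113207465 to 113314126), whose product BMAL1 is the indispensable activator, measured 1.89, 3.36 and 2.26 TPM in wild-type vehicle replicates 1 to 3. The wild-type GW4064 libraries gave 3.11, 4.71 and 2.86 TPM. In the knockout it measured 18.2, 11.6 and 15.1 TPM on vehicle, and 18, 20.6 and 32.3 TPM under GW4064. Every knockout library lay above every wild-type library, with knockout GW4064 replicate 3 the highest. On the log2 scale the knockout exceeded wild type by 2.37 ± 0.26 (SE) on vehicle and by 2.55 ± 0.26 under GW4064 (limma adjusted p = 2.9e-04 and 4.6e-05, n = 3 per group).

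Npas2 (Entrez Gene 18143, chromosome 1, 39194272 to 39363240) encodes the partner that can replace CLOCK. It was at 0.337, 0.496 and 0.297 TPM on vehicle and at 0.574, 0.78 and 0.266 TPM under GW4064 in wild type. It was at 2.78, 1.84 and 2.63 TPM in knockout vehicle libraries and 4.32, 4.73 and 7.43 TPM in knockout GW4064 libraries. All 6 wild-type libraries lay under the filter of 1 TPM, so that a difference was built into its being tested. Its coverage went down to 0.385 reads per base in the lowest library. The log2 difference was 1.73 ± 0.25 on vehicle and 2.52 ± 0.25 under GW4064 (limma adjusted p = 0.00181 and 4.4e-05).

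Clock (Entrez Gene 12753, chromosome 5, 76209868 to 76304792), the usual partner of BMAL1, varied far less. Its range was 34 to 35.9 TPM over the 6 wild-type libraries, 36.7 to 42.3 TPM on vehicle in the knockout and 42.7 to 48.5 TPM with GW4064 in the knockout. The genotypes did not overlap in either treatment. The difference of 0.16 ± 0.06 on vehicle did not pass (limma adjusted p = 0.101), but did with median-of-ratios and quantile scaling (0.25 and 0.24, adjusted p = 0.0321 and 0.0386). That of 0.37 ± 0.06 under GW4064 passed (adjusted p = 0.00151). An entry for Mir1191 covers the whole of Clock on the same strand and held at most 0.9 TPM.

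**Figure D2:**
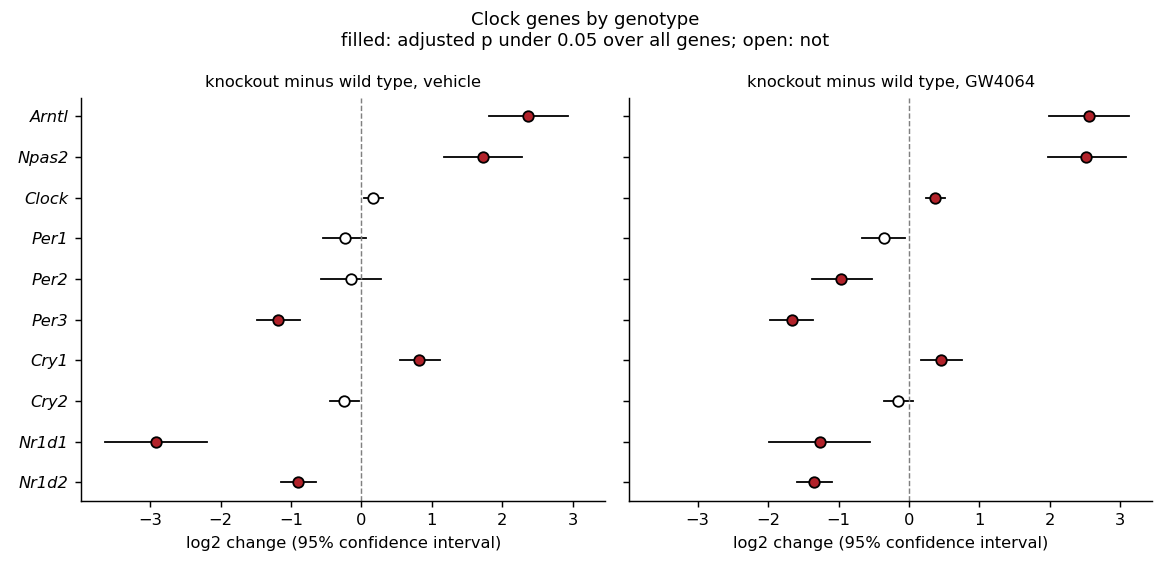
Log2 difference of each clock gene, knockout minus wild type, on vehicle (left) and under GW4064 (right), with 95% confidence intervals from limma; filled points passed at an adjusted p under 0.05 over all genes. On vehicle 6 genes passed and under GW4064 8 did, with Arntl and Npas2 at the right and Nr1d1, Nr1d2 and Per3 at the left in both panels.

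The 3 period genes, which encode the inhibitors that bind CRY proteins, did not behave alike. Per3 (Entrez Gene 18628, chromosome 4, 151003655 to 151044665), whose window held a pair of D-box letters, measured 46.4, 39.1 and 45.3 TPM in wild-type vehicle and 46.1, 42.1 and 42.6 TPM in wild-type GW4064 libraries. It measured 16.5, 21.3 and 19.1 TPM in knockout vehicle and 16.7, 13.4 and 10.7 TPM in knockout GW4064 libraries. All 6 knockout libraries were below all 6 wild-type libraries. The differences were -1.18 ± 0.14 and -1.66 ± 0.14 (limma adjusted p = 4.9e-04 and 1.2e-05).

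Per2 (Entrez Gene 18627, chromosome 1, 91415982 to 91459328) was at 41.3, 40.3 and 32.3 TPM in wild-type vehicle and 34.2, 34.9 and 33.2 TPM in knockout vehicle libraries. These groups overlapped, and the difference of -0.15 ± 0.19 did not pass (limma adjusted p = 0.648, 95% confidence interval -0.57 to 0.28). With GW4064 it was at 45.3, 43 and 38.4 TPM in wild type and 24.4, 28.3 and 14.2 TPM in the knockout. These groups did not overlap, with a difference of -0.96 ± 0.19 (limma adjusted p = 0.0053).

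Per1 (Entrez Gene 18626, chromosome 11, 69098956 to 69109957) is also induced by glucocorticoids and by cAMP signalling. Its range was 25.1 to 33.8 TPM in wild-type vehicle, 23.5 to 29.3 TPM in wild-type GW4064, 21.8 to 26.4 TPM in knockout vehicle and 17.4 to 23.8 TPM in knockout GW4064 libraries. The genotypes overlapped in both treatments and neither difference passed (-0.24 ± 0.14 and -0.36 ± 0.14, limma adjusted p = 0.265 and 0.102). Of 9 other glucocorticoid-responsive genes 2 were higher in the knockout on vehicle and 3 under GW4064 (limma), against 3.19% and 7.08% of all genes. The 9 genes summed to 1025 to 1441 TPM in wild-type and 1514 to 1986 TPM in knockout libraries. Sgk1 and Errfi1, the 2 called on vehicle, made up most of that difference there.

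The cryptochrome genes, which encode the stronger inhibitors of the loop, parted. Cry1 (Entrez Gene 12952, chromosome 10, 85131700 to 85185054) measured 11.5, 13.5 and 11 TPM in wild-type vehicle and 18.3, 17.5 and 12.8 TPM in wild-type GW4064 libraries. It measured 23, 21.8 and 20.1 TPM in knockout vehicle and 21, 25.2 and 20.7 TPM in knockout GW4064 libraries. Every knockout library was above every wild-type library, and the differences were 0.82 ± 0.13 on vehicle and 0.46 ± 0.13 under GW4064 (limma adjusted p = 0.00294 and 0.0318). The call under GW4064 ended when only the groups compared were fitted (limma adjusted p = 0.0761), without wild-type GW4064 replicate 3 (0.095) and without knockout GW4064 replicate 2 (0.109).

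Cry2 (Entrez Gene 12953, chromosome 2, 92403647 to 92434069) ranged from 23.9 to 25.4 TPM in wild-type vehicle and 19.5 to 21.7 TPM in knockout vehicle libraries. These groups did not overlap, yet the difference of -0.25 ± 0.09 did not pass (limma adjusted p = 0.105), except without knockout GW4064 replicate 2 (adjusted p = 0.0484). With GW4064 the ranges of 20.1 to 23.1 TPM in wild type and 17 to 22.8 TPM in the knockout overlapped (-0.15 ± 0.09, limma adjusted p = 0.305). The gene D930015M05Rik overlaps Cry2 on the other strand and held at most 0.481 TPM.

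Nr1d1 (Entrez Gene 217166, chromosome 11, 98767932 to 98775377) encodes REV-ERB-alpha, the main repressor of Arntl. It measured 18.7, 18.7 and 29.6 TPM in wild-type vehicle and 7.94, 8.59 and 12.1 TPM in wild-type GW4064 libraries. It measured 1.70, 4.12 and 2.03 TPM in knockout vehicle and 4.26, 2.10 and 5.09 TPM in knockout GW4064 libraries. The 4 groups thus fell into 3 separate ranges, with both knockout groups at the bottom and overlapping each other. The genotype difference was -2.92 ± 0.33 on vehicle and -1.27 ± 0.33 under GW4064 (limma adjusted p = 3.9e-04 and 0.0201). The second call ended without wild-type GW4064 replicate 3 (-1.09, adjusted p = 0.0746) and without knockout GW4064 replicate 2 (-0.94, adjusted p = 0.0689).

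Nr1d1 shares 1075 bases with Thra, a thyroid hormone receptor gene on the other strand. Thra measured 34.7 to 37.7 TPM in wild-type vehicle, 27.3 to 33.8 TPM in wild-type GW4064, 26.6 to 31.3 TPM in knockout vehicle and 33.2 to 44.3 TPM in knockout GW4064 libraries. The labelled kit keeps strand, but whether counting used it is not stated in the labels. The part of Thra reads in the values of Nr1d1 was not tested.

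Nr1d2 (Entrez Gene 353187, chromosome 14, 18204056 to 18239106) encodes REV-ERB-beta. It measured 129, 126 and 141 TPM in wild-type vehicle and 138, 118 and 136 TPM in wild-type GW4064 libraries. It measured 65.5, 77.2 and 69.2 TPM in knockout vehicle and 62.4, 46.3 and 45.9 TPM in knockout GW4064 libraries. All knockout libraries were below all wild-type libraries (-0.90 ± 0.11 and -1.35 ± 0.11, limma adjusted p = 7.0e-04 and 1.1e-05).

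Without the 4 libraries high in a globin transcript, a choice made after seeing the data, 1 wild-type vehicle library was left and was assumed to vary like the others. On vehicle 2 of the 10 clock genes then passed, Arntl (1.98, limma adjusted p = 0.0137) and Per3 (-1.03, adjusted p = 0.0424). Nr1d1 (-2.70, adjusted p = 0.0665), Nr1d2 (-0.84, 0.0765), Npas2 (1.53, 0.102) and Cry1 (0.66, 0.22) kept their direction and lost their calls (limma). Over all genes the count went from 1872 to 98. Under GW4064, 6 of the 10 passed without these libraries, and Cry1 and Nr1d1 did not (0.57 and -1.55, limma adjusted p = 0.0887 and 0.066).

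Scaling also bears on the direction of calls over all genes. On vehicle 462 genes were higher and 1410 lower in the knockout, against 833 and 539 with median-of-ratios scaling and 674 and 591 with quantile scaling. Under GW4064 the split was 1026 and 1651, against 1250 and 1309 and 1306 and 1321. The 6 clock genes called on vehicle and the 8 called under GW4064 kept their direction and their calls with both scalings.

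The next comparison was GW4064 against vehicle in wild type, where the receptor gene is intact. None of the 10 clock genes passed (limma), against 4.80% of all genes (2.48% higher and 2.32% lower). At an unadjusted p under 0.05 there were 2 of the 10, Nr1d1 and Cry1, against 19.3% of all genes. Groups did not overlap for 2 of the 10, Nr1d1 and Cry2, both lower, against 26.8% of all (10.1% higher and 16.7% lower). The median absolute difference was 0.16, against 0.11 over all genes.

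Nr1d1 had the largest difference of the 10 in wild type. Its GW4064 libraries (7.94 to 12.1 TPM) all lay below its vehicle libraries (18.7 to 29.6 TPM), with a log2 difference of -1.17 ± 0.33 (limma adjusted p = 0.0717, 95% confidence interval -1.90 to -0.45). It passed with array weights (adjusted p = 0.0394), with only the groups compared (0.0232), and when replicate 2 of knockout vehicle (0.0409) or of knockout GW4064 (0.0382, limma) was left out. Without the 4 libraries high in a globin transcript it was -0.90 (adjusted p = 0.674).

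Cry1 gave 0.41 ± 0.13 (limma adjusted p = 0.113, 95% confidence interval 0.12 to 0.69), with wild-type GW4064 replicate 3 inside the vehicle range. Without that replicate it passed (0.56, adjusted p = 0.0183). Arntl gave 0.44 ± 0.26 with overlapping groups (adjusted p = 0.389, limma), and -0.15 without the 4 libraries high in a globin transcript. Nr1d2, Per3 and Clock lay near 0 (-0.01 ± 0.11, 0.00 ± 0.14 and -0.02 ± 0.06), with 95% confidence intervals of -0.26 to 0.23, -0.30 to 0.31 and -0.16 to 0.11. Npas2 (0.22 ± 0.25), Per2 (0.16 ± 0.19), Per1 (-0.07 ± 0.14) and Cry2 (-0.17 ± 0.09) did not pass either (limma adjusted p of 0.372 to 0.825).

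**Figure D3:**
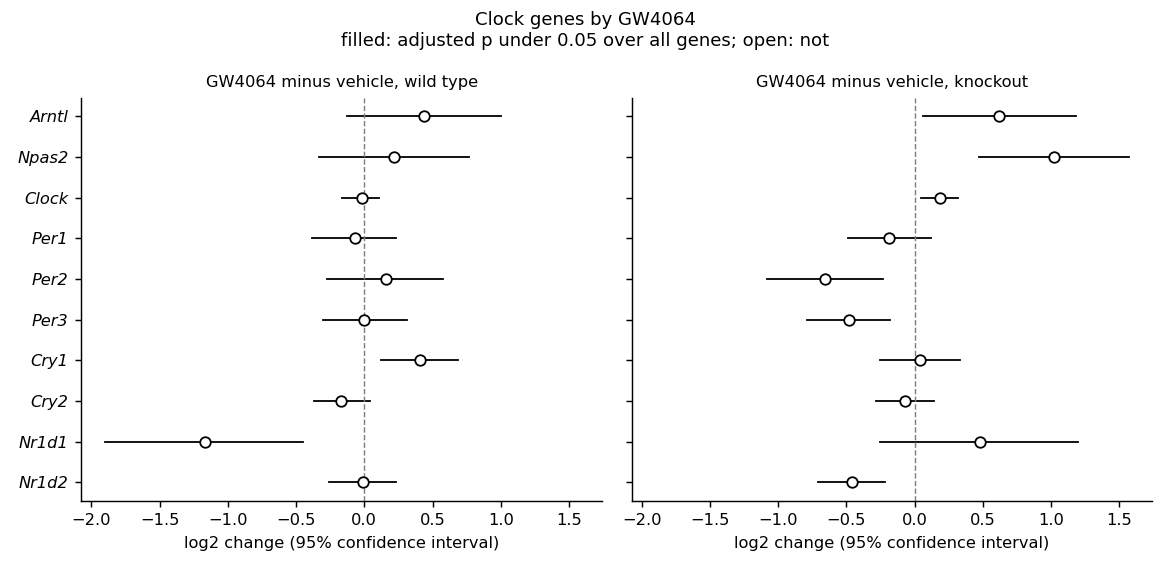
Log2 difference of each clock gene, GW4064 minus vehicle, in wild type (left) and in the knockout (right), with 95% confidence intervals from limma; open points did not pass at an adjusted p under 0.05 over all genes. No gene passed in either panel, and the point of Nr1d1 is at -1.17 in wild type and 0.48 in the knockout.

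In the knockout none of the 10 clock genes passed after GW4064 (limma), where 0.0138% of all genes did (0.00690% in each direction). At an unadjusted p under 0.05 there were 6 of the 10, against 10.8% of all genes, and groups did not overlap for 4 of the 10, Npas2 and Clock higher and Per2 and Nr1d2 lower, against 13.9% of all (8.78% higher and 5.07% lower). Npas2 (1.02 ± 0.25), Arntl (0.62 ± 0.26) and Clock (0.19 ± 0.06) were the 3 of the 6 with higher values under GW4064. Per2 (-0.66 ± 0.19), Per3 (-0.48 ± 0.14) and Nr1d2 (-0.46 ± 0.11) were the 3 with lower values, and adjusted p over the 6 genes was 0.212 to 0.405 (limma). Nr1d1 (0.48 ± 0.33), Per1 (-0.19 ± 0.14), Cry2 (-0.07 ± 0.09) and Cry1 (0.04 ± 0.13) did not reach an unadjusted p of 0.05. The median absolute difference was 0.47, against 0.09 over all genes.

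Part of these differences came from 1 library. Knockout GW4064 replicate 3 had the highest Arntl, Npas2, Clock and Nr1d1 and the lowest Per1, Per2, Per3, Cry1, Cry2 and Nr1d2 of its group. It was also the knockout library with high Hbb-bs, while its Hba-a1 and Alas2 (23.7 and 20 TPM) were near those of the other libraries, and the part of this in the result was not tested. Without it the differences were 0.38 for Arntl, 0.80 for Npas2, 0.13 for Clock, -0.37 for Per2, -0.32 for Per3 and -0.39 for Nr1d2 (limma adjusted p of 0.477 to 0.715).

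Whether the GW4064 difference itself depended on genotype was tested as an interaction, knockout minus wild type. None of the 10 passed (limma), against 3.19% of all genes (1.47% higher and 1.72% lower), and 6 had an unadjusted p under 0.05, against 19.0% of all genes. Nr1d1 gave 1.65 ± 0.47 (limma adjusted p = 0.0833), Per2 -0.81 ± 0.27 (0.137), Npas2 0.80 ± 0.36 (0.253), Per3 -0.48 ± 0.20 (0.216), Nr1d2 -0.45 ± 0.16 (0.155) and Clock 0.21 ± 0.09 (0.226). Nr1d1 passed when replicate 2 of knockout vehicle (1.97, adjusted p = 0.0335) or of knockout GW4064 (1.98, 0.0297, limma) was left out. Per2 passed without the latter (-1.01, 0.0492) and Nr1d2 without knockout GW4064 replicate 1 (-0.59, 0.0241). Other omissions made values smaller: without knockout GW4064 replicate 3 Per2 was at -0.53 and Per3 at -0.32, and without the 4 libraries high in a globin transcript Nr1d1 was at 1.15 and Per2 at -0.42 (limma adjusted p of 0.107 to 0.638). The comparisons of agent and of genotype share libraries, so their values stand side by side and are not independent.

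Ratios within a library do not depend on how libraries are scaled to each other. Those given here restate the genotype differences of the same genes described above and are not a separate test. The TPM of Arntl divided by that of Nr1d1 was 0.0765 to 0.18 in wild-type vehicle and 0.237 to 0.548 in wild-type GW4064 libraries. It was 2.81 to 10.7 in knockout vehicle and 4.22 to 9.83 in knockout GW4064 libraries. Arntl was thus below Nr1d1 in every wild-type library and above it in every knockout library. Cry1 stood at 0.453 to 0.566 of Cry2 in wild-type vehicle, 0.635 to 0.793 in wild-type GW4064, 0.982 to 1.18 in knockout vehicle and 1.09 to 1.21 in knockout GW4064 libraries. Npas2 stood at 0.00624 to 0.0185 of Per3 in wild-type and 0.0864 to 0.697 in knockout libraries. It was under the filter of 1 TPM in every wild-type library and was tested only through its higher knockout values.

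**Figure D4:**
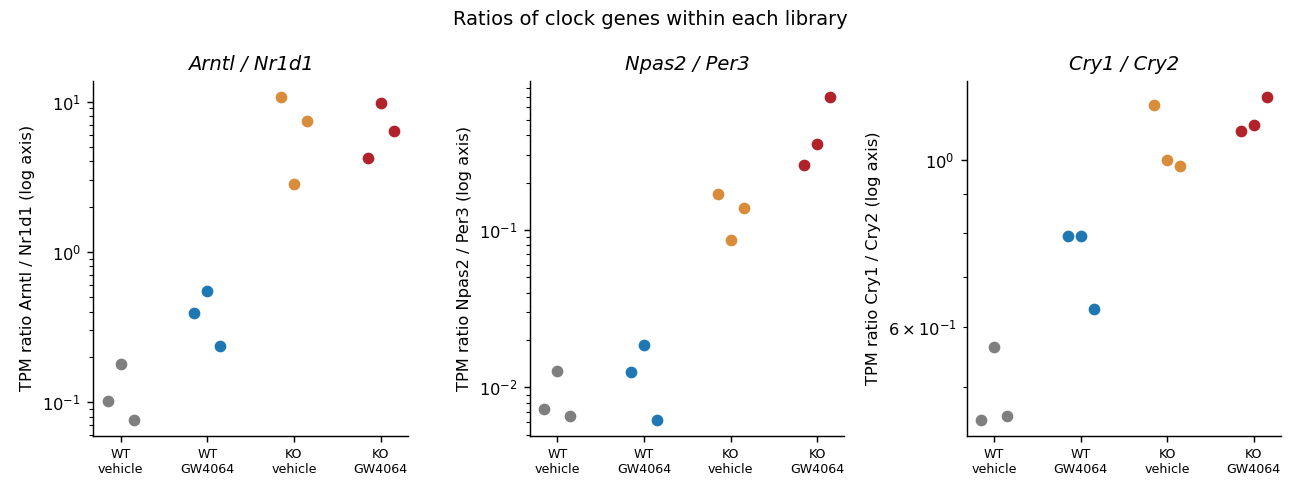
Ratios of TPM within each library for Arntl to Nr1d1, Npas2 to Per3 and Cry1 to Cry2, on log axes; points are the 3 libraries of each group. Arntl to Nr1d1 lies between 0.0765 and 0.548 in wild type and between 2.81 and 10.7 in the knockout. Npas2 was under the filter of 1 TPM in every wild-type library.

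The order of the genes by TPM differed between genotypes. In wild-type vehicle libraries Nr1d2 came first (132 ± 7.78 TPM, SD, n = 3), then Per3 (43.6 ± 3.92), Per2 (38 ± 4.92), Clock (35.1 ± 0.968), Per1 (28.7 ± 4.57), Cry2 (24.4 ± 0.795), Nr1d1 (22.3 ± 6.27), Cry1 (12 ± 1.31), Arntl (2.5 ± 0.767) and Npas2 (0.377 ± 0.105). Neighbours whose ranges overlapped were Per3 and Per2, Per2 and Clock, Per1 and Cry2, and Cry2 and Nr1d1. With GW4064 in wild type the order was the same except that Cry1 (16.2 ± 2.99) stood above Nr1d1 (9.54 ± 2.23).

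In knockout vehicle libraries Nr1d2 (70.6 ± 6.01 TPM), Clock (39.5 ± 2.82) and Per2 (34.1 ± 0.89) led. Per1 (24.1 ± 2.3), Cry1 (21.6 ± 1.47), Cry2 (20.5 ± 1.11), Per3 (19 ± 2.41) and Arntl (14.9 ± 3.29) followed, each overlapping the next. Nr1d1 (2.61 ± 1.31) and Npas2 (2.42 ± 0.503) were last and overlapped. In knockout GW4064 libraries Nr1d2 (51.5 ± 9.4) and Clock (45 ± 3.05) overlapped at the top, Arntl (23.6 ± 7.65) came next, and Npas2 (5.49 ± 1.69) and Nr1d1 (3.81 ± 1.55) overlapped at the bottom.

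Other regulators and direct outputs of the clock were counted from a list of 21 genes, 20 of them tested. On vehicle 1 was higher and 5 were lower in the knockout, against 3.19% and 9.73% of all genes. Under GW4064 2 were higher and 6 lower, against 7.08% and 11.4% of all genes, with median differences of -0.19 and -0.11 (-0.09 and -0.03 over all genes tested). Dbp, a D-box activator switched on by BMAL1, measured 122, 86.5 and 132 TPM in wild-type vehicle and 14.5, 23.8 and 16.4 TPM in knockout vehicle libraries (-2.62 ± 0.26, limma adjusted p = 1.7e-04). With GW4064 it measured 69.4, 62.9 and 92.1 TPM in wild type and 10, 13.3 and 6.38 TPM in the knockout (-2.89 ± 0.26, adjusted p = 2.0e-05, limma). Its relatives Tef and Hlf were lower on vehicle (-0.80 ± 0.07 and -0.61 ± 0.11), and Tef also under GW4064 (-0.95 ± 0.07).

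Nfil3, the repressor that competes with DBP for the D-box and a REV-ERB target, went the other way. It measured 2.98, 4.15 and 2.69 TPM in wild-type vehicle and 12.8, 13.5 and 9.76 TPM in knockout vehicle libraries (1.74 ± 0.23, limma adjusted p = 8.9e-04), and it was also higher under GW4064 (1.52 ± 0.23). Ciart, a repressor of CLOCK and BMAL1, was at 9.39 to 12.6 TPM in wild-type vehicle and 1.07 to 1.61 TPM in knockout vehicle libraries (-2.63 ± 0.31) and was lower under GW4064 too (-1.72 ± 0.31, limma adjusted p = 5.2e-04 and 0.0028). The metabolic enzyme gene Nampt was lower on vehicle (-0.16 ± 0.05, limma adjusted p = 0.0489), a call lost in 17 of 25 alternatives.

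Under GW4064 the deubiquitinase gene Usp2 (-0.96 ± 0.14), the cell cycle kinase gene Wee1 (-0.38 ± 0.11) and the kinase gene Csnk1d (-0.16 ± 0.04) were also lower, and Csnk1e (0.32 ± 0.08), whose kinase phosphorylates PER, was higher. Without the 4 libraries high in a globin transcript the differences of Hlf and Nfil3 on vehicle did not pass (limma adjusted p = 0.173 and 0.104), nor did those of Wee1, Csnk1d and Csnk1e under GW4064 (0.0667, 0.0852 and 0.114), while those of Ciart, Dbp and Tef passed in each of 25 alternatives in both treatments. Without knockout GW4064 replicate 3 the difference of Wee1 was -0.23 (limma adjusted p = 0.0714).

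After GW4064 in wild type 1 of the 20 was higher, Csnk1d (0.21 ± 0.04), and 2 were lower, Hlf (-0.66 ± 0.11) and the rhythmic phosphatase gene Noct (-1.64 ± 0.31, limma adjusted p = 0.0102), against 2.48% and 2.32% of all genes. Noct lost its call without wild-type GW4064 replicate 1 (adjusted p = 0.0534, limma), and none of the 3 passed without the 4 libraries high in a globin transcript (Hlf 0.188, Csnk1d 0.249 and Noct 0.0898). In the knockout none of the 20 passed, and those of lowest p were Tef (-0.35 ± 0.07) and Usp2 (-0.54 ± 0.14) below 0 and Btrc (0.25 ± 0.09) and Csnk1e (0.21 ± 0.08) above it (limma adjusted p = 0.13, 0.23, 0.367 and 0.386).

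Genes with profiles nearest to 3 members were sought by the root mean square distance of centred log2 values over the 12 libraries. The 10970 candidates were named genes outside the core clock genes, with a mean of at least 5 TPM and gene models left out. Other core clock genes, and genes of lower mean such as Ciart, were therefore not compared. Arntl itself varied by 1.29 about its mean. The nearest candidates were Slc16a1, a monocarboxylate transporter (0.288), Pdk4, an inhibitory kinase of pyruvate dehydrogenase (0.376), and Plin2, a lipid droplet coat protein (0.464). Slc16a1 ranged from 21.7 to 27.6 TPM in wild-type libraries, 90.4 to 111 TPM in knockout vehicle and 163 to 180 TPM in knockout GW4064 libraries. Around Per2, which varied by 0.431, lay the clock output Usp2 (0.167), the phosphate transporter gene Slc34a3 (0.211) and Cpne4 (0.211). Nr1d1, which varied by 1.2, had no candidate as near, the closest being the uridine phosphorylase gene Upp2 (0.688), Mfsd2a (0.69) and the prolactin receptor gene Prlr (0.728).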

How the data were processed

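The authors deposited 1 table of genes per library. The submitters' processing notes name HISAT2, StringTie, Cufflinks and the build mm10, without versions or roles, and no annotation is named. The deposited TPM values sum to 1000000 per library. The FPKM values that the authors give beside them differ from TPM by 1 factor per library and were used as an alternative. The deposited coverage signal, reads per base, served only for depth, through its ratio to FPKM for libraries and directly for Npas2. Entries of 1 identifier (113 to 142 per library had several) were summed, and 24462 identifiers had a RefSeq symbol.

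The 14488 genes that reached 1 TPM in 3 or more libraries were fitted as log2(TPM + 0.5) with 1 mean per group over all 12 libraries in limma 3.58.1 (R 4.3.3), with a variance trend. This draws fold changes of low genes toward 0. P-values are two-sided and were adjusted by the Benjamini-Hochberg method over all genes of a comparison. Errors beside TPM are SD, and those beside log2 differences are SE. The fit was tested on simulated data. Figures were made with Python 3.11.15 and matplotlib 3.10.9. An exact permutation test of 3 against 3 was not used, since it cannot give a small p.

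The members and lists were chosen with earlier results of these data known. Named were the 10 members and the genes that passed in the lists of other clock, glucocorticoid-responsive and immediate early genes. Also named were the 2 other clock genes of lowest p per direction for GW4064 in the knockout. The 3 genes nearest to Arntl, Per2 and Nr1d1 were sought outside the members, with a mean of at least 5 TPM. Cell type markers were given as sums, whether or not they passed. Kap, the blood markers and some fat, intercalated cell and endothelial markers were given singly. Sums of loop of Henle, distal convoluted tubule, fat, adrenal, liver and immune markers were not shown. 1 gene of the list of other clock genes is not reported here and was left out of its counts. Fkbp5 was chosen after its values were seen.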

Additional observations from a re-analysis of the deposited data

Results flagged for a closer look

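No core clock gene passed the test of whether the GW4064 difference depends on genotype. Beside them, 20 other clock genes, 9 glucocorticoid-responsive genes, 8 immediate early genes and Thra were examined. Of these 3 passed that test (limma, knockout minus wild type on the log2 scale), against 3.19% of all genes. Csnk1e gave 0.49 ± 0.12 (adjusted p = 0.0433, limma), its mean going from 16.6 on vehicle to 13.6 TPM on GW4064 in wild type and from 14.7 to 17 TPM in the knockout. Thra, which overlaps Nr1d1, gave 0.70 ± 0.15 (adjusted p = 0.034, limma), from 36.5 to 29.6 TPM in wild type and from 28.9 to 38.2 TPM in the knockout. Sgk1, a kinase gene induced by corticosteroids, gave -1.30 ± 0.26 (adjusted p = 0.0229, limma), from 153 to 239 TPM in wild type and from 462 to 300 TPM in the knockout. Of 24 alternatives, the call was lost in 18 for Csnk1e, 10 for Thra and 4 for Sgk1, each time in the same direction.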

How the results depend on the processing

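Over 12 other settings, the 12 libraries left out in turn and 1 choice added after seeing the data, 1188 of 1235 differences of clock genes kept direction and side of the threshold, 11 lost a call, 13 gained one and 23 changed sign. None of the 23 belonged to a called difference. The cause of these changes was not tested, except that fewer libraries leave less to estimate the spread from. Npas2 has no value under a filter of 5 TPM.

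Clock genes called for GW4064 in wild type were 1 in place of 0 with array weights and 1 with only the groups compared (Nr1d1 in both), and 1 with a replicate block (Cry1, limma adjusted p = 0.0483). Over all genes, correlations of deviations from group means were -0.07 to 0.08 over 18 same-number pairs and -0.11 to 0.13 over 36 other pairs. Libraries of 1 replicate number were thus not more alike over all genes. A pairing that acts on few genes would not be seen in such correlations. Leaving out single libraries gave 0 to 1 such genes in wild type, 0 to 0 in the knockout, 6 to 7 for genotype on vehicle, 6 to 8 under GW4064 and 0 to 2 for the interaction. Over all genes the counts were then 337 to 768 (696 with all), 0 to 51 (2), 913 to 1899 (1872), 1732 to 2759 (2677) and 220 to 535 (462). The 2 genes called in the knockout became 1 with a pseudocount of 0.1, FPKM, median-of-ratios scaling, quantile scaling, array weights and without the libraries high in a globin transcript, and 0 without the variance trend, with only the groups compared and with the replicate block. Without those 4 libraries counts over all genes were 66 for GW4064 in wild type, 98 and 1148 for genotype on vehicle and under GW4064, and 25 for the interaction, with 2 clock genes for genotype on vehicle.

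Signs changed for GW4064 in wild type in Nr1d2 (0.00073 with FPKM, 0.02 with median-of-ratios scaling), Clock (0.01 with that scaling and 0.01 with quantile scaling) and Per3 (-0.0038 with array weights). Without the libraries high in a globin transcript they changed in Arntl (-0.15), Npas2 (-0.14) and Nr1d2 (0.12) in wild type, Cry2 (0.03) in the knockout and Per1 (0.16) for the interaction. With single libraries left out the ranges crossed 0 in wild type for Per1 (-0.17 to 0.05), Per3 (-0.07 to 0.05) and Nr1d2 (-0.06 to 0.06). They did so in the knockout for Cry1 (-0.05 to 0.09) and Cry2 (-0.18 to 0.03), and for the interaction for Arntl (-0.06 to 0.38), Per1 (-0.24 to 0.02) and Cry2 (-0.01 to 0.19).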

Other observations

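Genes of pathways that also act on Per1 were counted from short lists. Of 9 glucocorticoid-responsive genes 2 were higher in the knockout on vehicle (3.19% of all genes were), Sgk1 (153 ± 31.8 against 462 ± 45.9 TPM, log2 1.61 ± 0.19) and the receptor inhibitor gene Errfi1 (0.82 ± 0.13, limma adjusted p = 4.4e-04 and 0.00242). Under GW4064 3 were higher (7.08% of all genes were), Errfi1 (0.52 ± 0.13) and the metallothionein genes Mt1 (0.77 ± 0.18) and Mt2 (0.89 ± 0.21). None was lower in either. Fkbp5, a gene commonly read as a marker of glucocorticoid action, did not pass (0.17 ± 0.24 on vehicle and 0.58 ± 0.24 under GW4064, limma adjusted p = 0.666 and 0.114).

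Of 8 immediate early genes tested from a list of 9, 2 were higher in the knockout on vehicle (3.19% of all genes), Nr4a1 (0.98 ± 0.28) and Atf3 (0.88 ± 0.24), both under 4 TPM in every library. Under GW4064 4 were higher (7.08% of all genes), Fos (1.07 ± 0.16), Jun (0.77 ± 0.12), Atf3 (0.82 ± 0.24) and Btg2 (0.59 ± 0.12), and none was lower in either (limma). Fos was at 0.683 to 1.19 TPM in wild-type libraries and at most 2.36 TPM in knockout libraries. It reached the filter of 1 TPM in 3 libraries only through the knockout, so that a difference was built into its being tested. Jun measured 18.6, 18.6 and 20.3 TPM in wild-type GW4064 and 29.3, 35.8 and 33.9 TPM in knockout GW4064 libraries. After GW4064 in wild type Junb was lower (21.3 ± 2.07 to 13 ± 1.95 TPM, log2 -0.70 ± 0.14, limma adjusted p = 0.0124). Junb lost that call without wild-type vehicle replicate 3 (-0.62, adjusted p = 0.059), without wild-type GW4064 replicate 1 (-0.57, 0.0549) and without the 4 libraries high in a globin transcript (-0.65, 0.36, limma). The last choice also ended the calls of Errfi1 on vehicle (0.163) and under GW4064 (0.102) and of Btg2 (0.075). Nr4a1 lost its call in 11 of 24 alternatives, and Atf3 in 7 of 24 for each treatment.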
